A study of Mus musculus with 16 samples.

Results

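Scavenger receptors are cell surface and lysosomal proteins with which macrophages bind and take up modified lipoproteins, dying cells, microbes and aggregated proteins. They belong to several unrelated protein classes that share ligands more than sequence, and phagocytes usually carry several of them at once. CD163, the receptor that clears haemoglobin bound to haptoglobin, is one of them and is deleted in the mice studied here. The 8 genes described here are other scavenger receptors, picked by name from the 18580 genes with a symbol in the expression tables. They are Cd36 and Scarb1 of class B, which bind oxidised lipoproteins and high-density lipoprotein, Msr1, Marco and Colec12 of class A, which bind modified lipoproteins and microbial surfaces, Cd68, a lysosomal glycoprotein of phagocytes, Stab1, an endocytic receptor of tissue macrophages and endothelium, and Olr1, the lectin-like receptor for oxidised low-density lipoprotein. The rule that lists them uses their names.

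The question put to the data was whether these receptors differed where Cd163 was deleted. SMART-seq2, a full-length RNA sequencing method for low inputs, was run on microglia (CD11b+, CD45 low or intermediate) and macrophages (CD11b+, CD45 high) sorted from the same brains, 2 months after both striata had been injected. Mice were males and females of the CD163KO line (CD163tm1.1(KOMP)Vlcg) and WT littermates (C57BL/6N), operated on at 12 weeks, and received murine α-synuclein as monomers (MONO) or pre-formed fibrils (PFF). Each combination of sex, genotype and treatment gave 1 table per population, so that 16 libraries were available, 8 of each population. Between 4 and 7 mice were injected per combination, and the sources do not say how the sequenced triplicates went into a table. Every mouse carried the deletion in all cells or in none, and every mouse had received some form of α-synuclein. The CD45 high gate also took in neutrophils and NK cells by the account of the methods.

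Libraries held between 12170686 and 21433841 estimated counts in macrophages and between 8648751 and 18768238 in microglia. Levels are given as FPKM (estimated counts corrected for transcript length and library depth), summed over the transcripts of a gene. The deleted gene was counted first. In macrophages Cd163 had 748 to 5275 counts in the 4 WT libraries and at most 1 in the 4 CD163KO libraries. In microglia it had 46, 101, 0 and 1 counts in the WT libraries and 5 to 23 in those labelled CD163KO, so the microglia labels could not be checked with it. Microglia markers (12 genes) summed to between 17736 and 43448 FPKM in microglia and at most 1877 in macrophages, and 12 markers of border-associated macrophages to between 2048 and 5407 in macrophages and at most 200 in microglia.

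Several libraries stood apart. The 10 genes with most counts took 16.5% of the counts in male WT PFF macrophages and 16.6% in male CD163KO MONO macrophages, against 39.7% to 64.0% in the other 6 macrophage libraries. In microglia of the same mice the shares were 58.7% and 47.7%, against 13.5% to 16.4%. The study left out male CD163KO MONO mice for inconsistent technical replicates, and the main tests described here leave them out as well. Male WT PFF libraries stayed in, and values without them are given where they matter. Counts of Y-linked genes came to 799 in the library labelled as microglia of female CD163KO MONO mice, where the other female libraries held at most 2. The macrophages with that label held 0. The sex term of the microglia fits and the pairing of this library with macrophages rest on its label. The methods name 2 batches of mice without tying a library to either, so batch could not be examined. The study also corrected for batch and removed outlier samples, which cannot be matched to the libraries used here.

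Coordinates of the receptor genes are those of RefSeq in mm10 (GRCm38.p6), where only Cd36 and Scarb1 share a chromosome. Cd36 is at chr5:17781690-17888959, Scarb1 at chr5:125277087-125341094, Msr1 at chr8:39543232-39642750, Cd68 at chr11:69664213-69666170 and Stab1 at chr14:31139017-31168651, while Marco is at chr1:120474538-120505024 and Olr1 at chr6:129479150-129507350. Promoter sequence in RefSeq was matched for 5 of the 8 genes (Cd36, Marco, Cd68, Stab1 and Olr1). Those of Cd68, Cd36 and Marco are shown because they stand for the 3 patterns of level that follow: abundant in both populations, far higher in macrophages, and unread in nearly every library. Each runs from 250 bases before an annotated start to 50 bases after it, and all lie on the minus strand (Cd68 chr11:69666121-69666420, Cd36 chr5:17835847-17836146, Marco chr1:120504975-120505274). Capitals mark the ETS core GAGGAA, the motif of macrophage factors such as PU.1, or the nuclear receptor half-site AGGTCA, on either strand.
Cd68: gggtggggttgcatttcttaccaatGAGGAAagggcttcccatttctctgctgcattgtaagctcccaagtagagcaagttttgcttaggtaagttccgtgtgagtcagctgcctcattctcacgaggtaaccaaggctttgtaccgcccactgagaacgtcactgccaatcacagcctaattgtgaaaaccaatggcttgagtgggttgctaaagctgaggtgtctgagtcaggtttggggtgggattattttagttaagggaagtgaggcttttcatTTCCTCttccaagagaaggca
Cd36: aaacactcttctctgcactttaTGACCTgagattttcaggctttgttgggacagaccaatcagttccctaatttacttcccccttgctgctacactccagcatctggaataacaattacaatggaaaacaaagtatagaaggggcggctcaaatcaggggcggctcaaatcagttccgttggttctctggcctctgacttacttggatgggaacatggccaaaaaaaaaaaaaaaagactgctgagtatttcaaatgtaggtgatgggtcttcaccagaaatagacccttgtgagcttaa
Marco: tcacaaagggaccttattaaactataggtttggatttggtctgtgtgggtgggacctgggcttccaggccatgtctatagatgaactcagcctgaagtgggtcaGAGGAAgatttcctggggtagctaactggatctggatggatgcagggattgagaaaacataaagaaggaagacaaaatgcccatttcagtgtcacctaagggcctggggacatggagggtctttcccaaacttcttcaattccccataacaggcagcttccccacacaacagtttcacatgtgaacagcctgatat
The Cd68 window held 2 ETS cores and the Marco window 1, while the Cd36 window held none and 1 half-site. Of 32851 mouse promoter windows of this length, 28.3% held the ETS core and 16.3% the half-site, so neither match sets a gene apart. Stab1 and Olr1 each held 1 ETS core as well, and Olr1 also 1 half-site.

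Cd68 was the most abundant of the receptors in every library of both populations. Its FPKM ran from 899 over a median of 1106 to 2017 in macrophages and from 955 over 1211 to 1411 in microglia, which placed its median 58th of 11943 genes and 40th of 13529 genes. Cd68 was above Stab1 without overlap in either population. Stab1 came next with 36.5 to 131 FPKM (median 73.4) in macrophages and 18.1 to 83.6 (median 59.4) in microglia. The order after these differed between the populations.

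In macrophages Msr1 (median 35.1 FPKM) and Cd36 (28.9) followed, then Colec12 (10.7), Scarb1 (4.81) and Olr1 (0.13). Msr1 exceeded Cd36 in 6 of 8 macrophage libraries, so the pair could not be ordered beyond the spread, and Cd36 exceeded Colec12 in 8 of 8. In microglia Colec12 (median 11.8 FPKM) and Scarb1 (6.41) stood above Cd36 (1.44) and Msr1 (1.32), and Olr1 was lowest among the genes read (0.55). Cd36 exceeded Msr1 in 3 of 8 microglia libraries and fell short of it in 5. Marco had no count in 15 libraries and 1 count in male CD163KO MONO microglia, which is under the limit of 3 counts that a count of 0 allows. Marco therefore passed no filter and enters no test, and the main tests that follow cover the remaining 7 receptors. In macrophages Olr1 was not tested by limma, nor given an adjusted p by DESeq2 for treatment, so statements on those alternatives there cover 6.

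**Figure D1:**
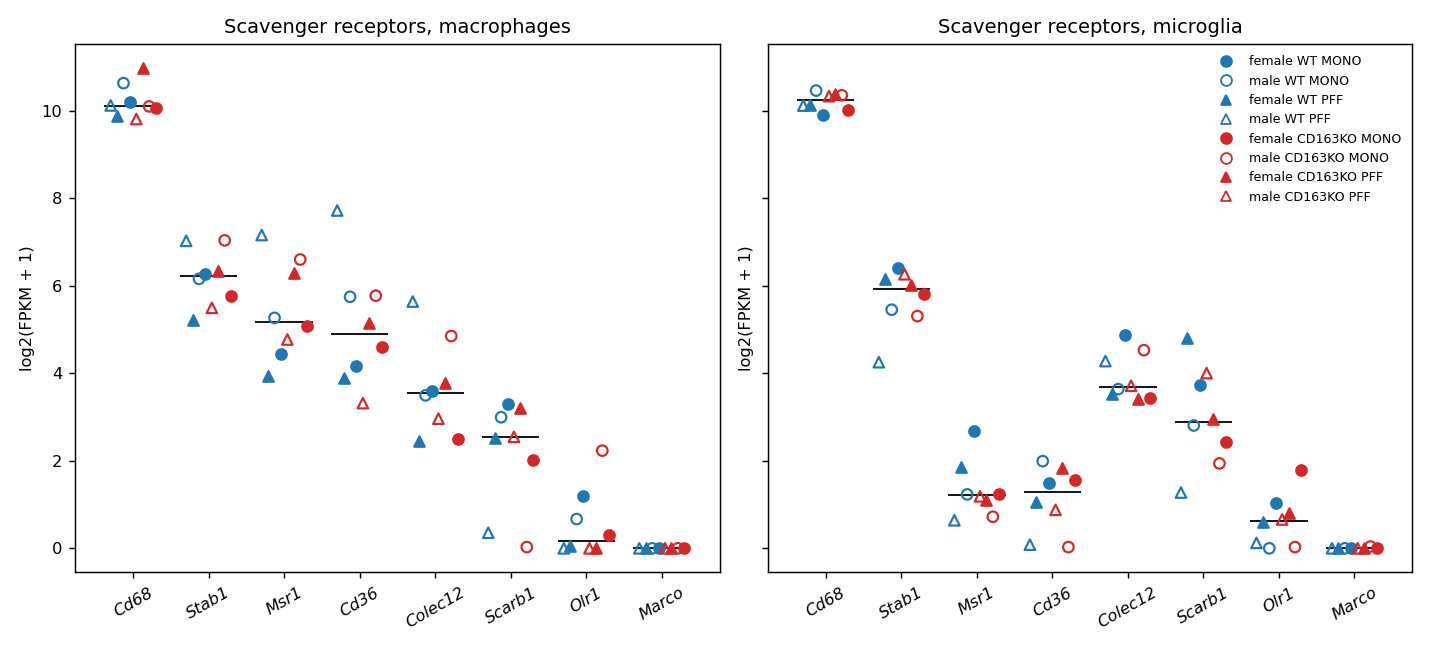
Level of the 8 receptors, as log2(FPKM + 1), in each of the 8 macrophage libraries (left) and 8 microglia libraries (right); the short line is the median, blue is WT, red is CD163KO, circles are MONO, triangles are PFF, filled symbols are females and open symbols are males. Cd68 lies at the top in both panels, Msr1 and Cd36 drop from the middle of the order in macrophages to near 0 in microglia, and WT and CD163KO symbols are mixed for every receptor.

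In macrophages none of the 7 receptors tested passed the test for an effect of the Cd163 deletion. CD163KO was compared with WT in a model with sex and treatment over 7 libraries, in which 0.00834% of 11988 genes passed an adjusted p of 0.05 (edgeR quasi-likelihood test, Benjamini-Hochberg), namely Cd163 itself (adjusted p = 0.010). No receptor had an unadjusted p under 0.05 in this test, and none was called by DESeq2 or limma. FPKM ranges of WT and CD163KO libraries overlapped for all 8 receptors, and overlap was not counted over all genes. In bulk libraries such as these, fewer cells of a type and less RNA per cell cannot be told apart.

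Msr1, the class A receptor for modified low-density lipoprotein, showed the largest positive estimate of the 7. It stood at 20.7 FPKM in female WT MONO, 14.5 in female WT PFF, 37.5 in male WT MONO and 142 in male WT PFF macrophages. In CD163KO it stood at 32.8 in female MONO, 76.9 in female PFF, 96.1 in male MONO and 26.4 in male PFF. Between libraries matched for sex and treatment, Msr1 was higher in CD163KO in 3 of 4 pairs. The pair that went the other way holds the male WT PFF library, and 1 of the 3 holds the male CD163KO MONO library that the tests leave out. The log2 fold change was 0.66 ± 0.47 (SE, 7 libraries; 95% interval -0.43 to 1.75, adjusted p = 1). Without male WT PFF it was 0.96 ± 0.39 (adjusted p = 1), and Msr1 was then the 1 receptor with an unadjusted p under 0.05. So were 427 of 11818 genes in that fit, against 79 of 11988 in the main test. With male CD163KO PFF left out instead, 1 receptor was also under 0.05, beside 51 of 11683 genes.

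Cd36, the class B receptor for oxidised lipoproteins and long-chain fatty acids, spread more widely. It stood at 17.0 FPKM in female WT MONO, 13.8 in female WT PFF, 52.8 in male WT MONO and 210 in male WT PFF macrophages. In CD163KO it stood at 23.1 in female MONO, 34.8 in female PFF, 53.7 in male MONO and 8.98 in male PFF. A single library, male WT PFF, lay above all others, and without it the sign turned, from -0.32 ± 0.76 (95% interval -2.06 to 1.43, adjusted p = 1) to 0.04 on the log2 scale. The 4 matched differences of log2(FPKM + 1) were 0.42 and 1.27 in females given MONO and PFF, and 0.03 and -4.40 in males. With TMM-scaled CPM (counts per library scaled to the typical gene) they were 1.07, 0.41, -0.80 and -2.85, so the male MONO pair turned its sign.

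Of the lysosomal and endocytic receptors, Cd68 had a log2 fold change of 0.42 ± 0.49 (95% interval -0.71 to 1.55) and Stab1 one of 0.17 ± 0.32 (-0.56 to 0.91) in macrophages. Stab1 ranged from 36.5 to 130 FPKM in WT and from 44.2 to 131 in CD163KO macrophages, but without male CD163KO MONO the latter reached only 80.1. Without library scaling Stab1 went to -0.32, which turns its sign. Colec12 had -0.38 ± 0.51 (-1.56 to 0.81) and Scarb1 0.37 ± 1.31 (-2.66 to 3.41), and the latter turned to -0.47 without male WT PFF. Olr1 had 59, 2, 40 and 0 counts in the WT and 10, 0 and 0 counts in the CD163KO libraries tested, too few for a fitted fold to be read. A 2-fold rise or a 2-fold fall, which is 1 on the log2 scale, lay within the intervals of Cd36, Msr1, Cd68, Colec12 and Scarb1 but not of Stab1.

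In microglia none of the 7 receptors passed either. In the same test over 7 libraries 0% of 12725 genes passed (166 genes had an unadjusted p under 0.05). No receptor had an unadjusted p under 0.05, and none was called by DESeq2 or limma. With DESeq2 1 receptor had an unadjusted p under 0.05, beside 505 of 12725 genes. The same number was found without the filter (314 of 17896 genes) and with several of the mouse groups left out. The estimate farthest from 0 belonged to Colec12, a collectin of class A that binds oxidised lipoproteins and microbial sugars. Colec12 stood at 28.3 FPKM in female WT MONO, 10.5 in female WT PFF, 11.5 in male WT MONO and 18.4 in male WT PFF microglia, and at 9.80, 9.64, 22.1 and 12.1 in female CD163KO MONO, female CD163KO PFF, male CD163KO MONO and male CD163KO PFF. It was lower in CD163KO in 3 of 4 matched pairs, the exception being the pair with male CD163KO MONO, and the groups overlapped. The log2 fold change was -1.44 ± 0.65 (95% interval -2.87 to 0.00039, adjusted p = 1). It was -0.44 without male WT PFF and -1.95 without the library labelled female CD163KO MONO, uncalled in both.

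For the other receptors in microglia, Msr1 had a log2 fold change of -0.80 ± 0.96 (-2.92 to 1.32), opposite in sign to its value in macrophages. Cd36 had 0.62 ± 1.23 (-2.10 to 3.34), Scarb1 -0.72 ± 0.57 (-1.99 to 0.55) and Olr1 1.31 ± 1.73 (-2.51 to 5.13). Cd68 had -0.42 ± 0.65 (-1.85 to 1.01) and Stab1 -0.17 ± 0.38 (-1.02 to 0.67), and both turned positive without library scaling. Whether the effect of the deletion differed between the populations was tested over 14 libraries, and 0% of 13704 genes passed, with 84 genes and none of the receptors at an unadjusted p under 0.05. DESeq2 called 36 genes in that comparison and none of the receptors. Without male WT PFF the difference between populations was 1.84 for Msr1 on the log2 scale, again uncalled but the 1 receptor at an unadjusted p under 0.05. In that fit 427 of 13633 genes were under 0.05 too.

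**Figure D2:**
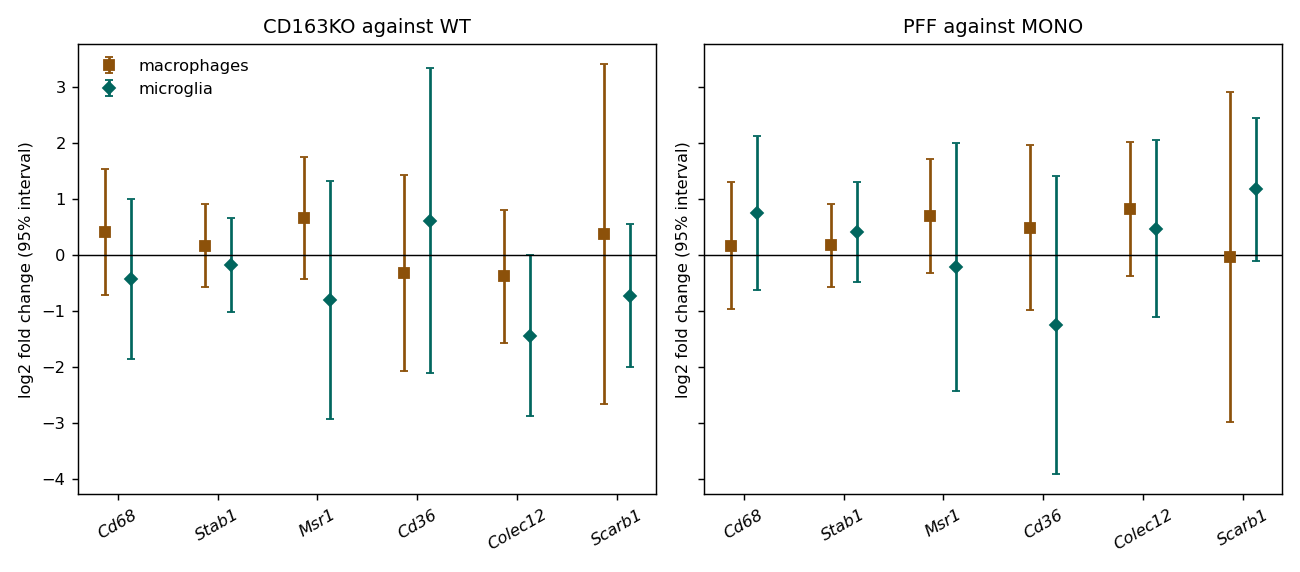
Log2 fold change with its 95% interval (bars) for 6 of the 7 receptors tested (Olr1, at or near 0 counts in several libraries, is left out), CD163KO against WT (left) and PFF against MONO (right), in macrophages (squares) and microglia (diamonds), from edgeR fits to 7 libraries per population. Every interval crosses 0, and those of macrophage Scarb1 and microglial Cd36 are widest.

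Fibrils were compared with monomers in the same models. None of the 7 receptors was called in macrophages or microglia, and 0% of all genes passed in either (125 of 11988 and 765 of 12725 had an unadjusted p under 0.05). DESeq2 called 13 genes in macrophages and 25 in microglia, and limma 1 in each on log2(FPKM + 1) and 4 and 0 on log2(FPKM + 0.1), with no receptor among them. In microglia no receptor had an unadjusted p under 0.05. In macrophages 1 did, Olr1, which passed the count filter only through its MONO libraries, so nothing is read from that p and no fitted fold is given.

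Olr1 was also the single receptor whose FPKM did not overlap between treatments, in macrophages only. How many of all genes did so was not counted, so nothing is read from it. In macrophages it had 59, 40, 10 and 248 counts in female WT, male WT, female CD163KO and male CD163KO libraries given MONO, and 2, 0, 0 and 0 given PFF. All 4 PFF libraries were at or under 3 counts. In microglia Olr1 had 28, 0, 137 and 1 counts given MONO and 26, 5, 42 and 27 given PFF, which overlapped, with a log2 fold change of 0.12 ± 2.00. The test of a difference in the treatment effect between populations was passed by 0% of 13704 genes and by no receptor (122 genes and none of the receptors at an unadjusted p under 0.05).

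Scarb1, the receptor for high-density lipoprotein, had the largest positive estimate by treatment in microglia. It stood at 12.3, 6.00, 4.38 and 2.84 FPKM in female WT, male WT, female CD163KO and male CD163KO microglia given MONO, and at 27.0, 1.42, 6.81 and 15.1 given PFF. The PFF libraries held both the highest and the lowest value, and the log2 fold change was 1.18 ± 0.58 (95% interval -0.10 to 2.46, adjusted p = 0.78). In macrophages Scarb1 was nearly absent from the libraries that stood apart, with 12 counts in male WT PFF and 1 in male CD163KO MONO, against 88 to 334 in the other 6. Its log2 fold change by treatment in macrophages was -0.03 ± 1.28 (95% interval -2.98 to 2.91). The remaining receptors other than Olr1 had log2 fold changes by treatment between 0.17 (Cd68) and 0.82 (Colec12) in macrophages, and between -1.24 (Cd36) and 0.75 (Cd68) in microglia.

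The populations differed far more than the genotypes or treatments. Macrophages were compared with microglia over 14 libraries, paired by mouse group. Of the 7 receptors tested, 4 were higher in macrophages (Msr1, Cd36, Stab1 and Cd68). Of 13704 genes, 11.6% were called higher and 18.2% in either direction. The pair labelled female CD163KO MONO held 799 Y-linked counts in microglia and 0 in macrophages, so it is not shown to come from the same mice. Without that pair 3 of the 7 receptors were called, against 1772 of 13593 genes. With all 14 libraries DESeq2 called 5, adding Colec12 to the 4. Directions over all genes depended on the scaling, with 1589 higher and 910 lower in the main test. Without TMM scaling 599 were higher and 5711 lower, and 2 receptors were called, both higher. The median fold change was 1.55 on the log2 scale for the 7 receptors and -0.37 for all genes. Msr1 and Cd36 did not overlap between the populations in FPKM, and the other 6 receptors did. Overlap was not counted over all genes.

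Cd36 ranged from 8.98 over 28.9 to 210 FPKM in macrophages and from 0.02 over 1.44 to 2.98 in microglia. Macrophages were higher in 8 of 8 mouse groups, with a median ratio of 12.9 over the 7 groups in which both libraries held more than 3 counts, and by 9.43-fold in the group where they differed least. Cd36 had a log2 fold change of 5.93 ± 0.56 (SE; adjusted p = 2.7e-05). Msr1 ranged from 14.5 over 35.1 to 142 FPKM in macrophages and from 0.56 over 1.32 to 5.46 in microglia, again higher in 8 of 8 mouse groups, with a median ratio of 25.9 and a lowest of 3.80. Its log2 fold change was 5.56 ± 0.48 (adjusted p = 1.4e-05). Both calls held without library scaling, at 4.12 for Cd36 and 4.00 for Msr1.

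The calls of Stab1 and Cd68 depended on the scaling, and that of Cd68 was also lost with all libraries, with DESeq2 size factors, without the filter, and when any mouse group other than male WT PFF was left out. Stab1 had a log2 fold change of 1.67 ± 0.21 (adjusted p = 0.00023) and Cd68 one of 1.55 ± 0.46 (adjusted p = 0.039) after TMM scaling. In FPKM Stab1 was higher in macrophages in 4 of 8 mouse groups, with a median ratio of 1.12, and Cd68 in 5 of 8, with a median ratio of 1.01. Without TMM scaling the values were 0.22 and 0.05, and neither was called. That scaling moved the median of all genes from -1.96 to -0.37, and relative to the median of all genes Stab1 stood at 2.04 with it and 2.18 without it, and Cd68 at 1.92 and 2.00. Both receptors thus had similar FPKM in the populations and stood higher in macrophages only when set against the median gene.

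Colec12 and Scarb1 were near this boundary too. Colec12 had a log2 fold change of 0.98 ± 0.32 (adjusted p = 0.052) and Scarb1 one of 0.66 ± 0.68 (adjusted p = 0.54), both of which turned negative without scaling, at -0.43 and -0.97. Scarb1 was lower in macrophages in 6 of 8 mouse groups by FPKM and Colec12 in 5 of 8. For Olr1 the fit gave -1.92 ± 2.15 (adjusted p = 0.57), which is not read because its macrophage counts were too few. Without the male WT PFF pair, the number of receptors called was 6 instead of 4 (and that of all genes 4869 instead of 2499), with Colec12 at 1.18 (adjusted p = 0.0026) and Scarb1 at 1.13 (adjusted p = 0.012).

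**Figure D3:**
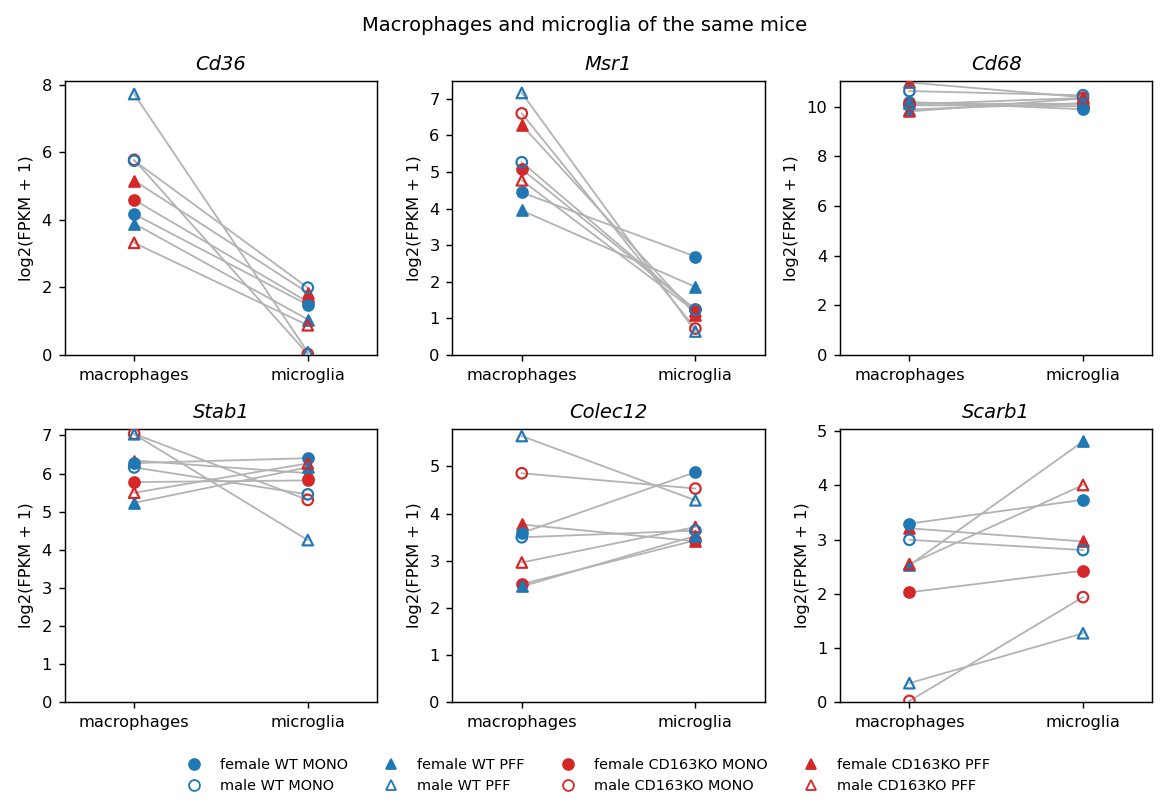
Log2(FPKM + 1) of 6 receptors in macrophages and microglia, with a grey line joining the libraries labelled as the same mouse group (8 pairs, with colours and symbols as in the plot of levels). In the pair labelled female CD163KO MONO, Y-linked counts were 799 in microglia and 0 in macrophages. Every line of Cd36 and Msr1 falls towards microglia, while the lines of Cd68, Stab1, Colec12 and Scarb1 run in both directions.

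Cell type markers varied among the macrophage libraries, and in FPKM those of border-associated macrophages were low where Cd36 and Stab1 were low, but not where Scarb1 was. The 12 markers of border-associated macrophages, all read in every macrophage library, summed to 2048 FPKM in female WT PFF and 2137 in male CD163KO PFF, where Cd36 (13.8 and 8.98 FPKM) and Stab1 (36.5 and 44.2) were lowest of the 8 in FPKM. That order depended on the scaling, since in TMM-scaled CPM Stab1 was 610 and 586 there, against 439 to 710 over the 8 libraries, and Cd36 was 100.1 and 51.9, against 51.9 to 381. They summed to between 4714 and 5407 in female CD163KO PFF, male WT MONO, male WT PFF and male CD163KO MONO, the 4 libraries with most Msr1 and Cd36 in FPKM but not in TMM-scaled CPM (male WT MONO was second lowest for Msr1 there, at 65.1), although 2 of these, male WT PFF and male CD163KO MONO, held the least Scarb1 (0.28 and 0.02 FPKM). The 12 neutrophil markers summed to between 22182 FPKM in female WT PFF and 134672 in male CD163KO PFF, so both libraries with few border-associated markers stood at opposite ends of the neutrophil range. In microglia the same neutrophil markers summed to between 1057 and 2876 FPKM. Choroid plexus markers in macrophages summed to between 84.9 FPKM in male CD163KO MONO and 12621 in female WT MONO. Scarb1 in FPKM was lowest and highest in these libraries (0.02 and 8.81). Male WT PFF (720 FPKM of markers, 0.28 of Scarb1) and male CD163KO PFF (103 and 4.85) did not follow that order. The part of these cells in the receptor levels was not tested.

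**Figure D4:**
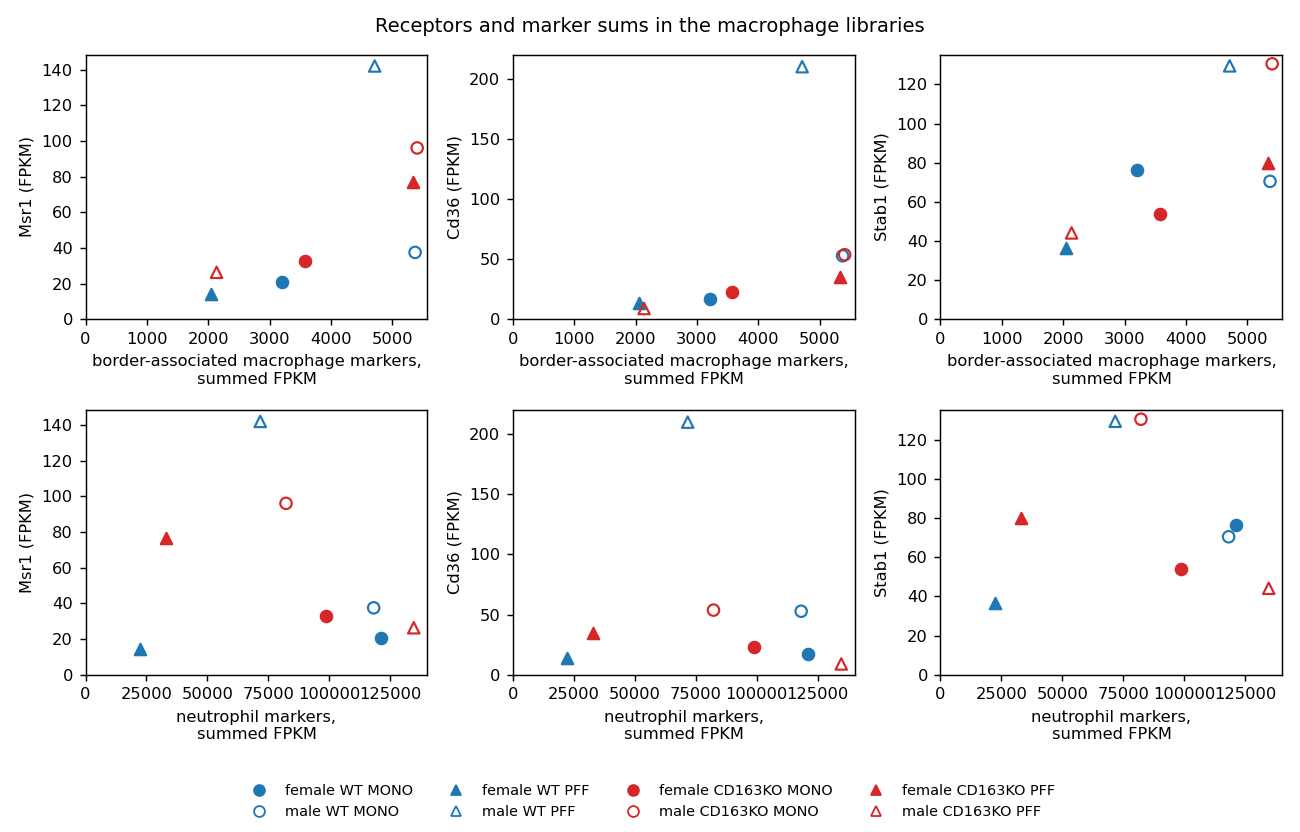
FPKM of Msr1, Cd36 and Stab1 in the 8 macrophage libraries against the summed FPKM of border-associated macrophage markers (top) and of neutrophil markers (bottom), with colours and symbols as in the plot of levels. The 2 libraries with the fewest border-associated markers (2048 and 2137 FPKM) hold the lowest Cd36 and Stab1 in FPKM, an order that does not hold in TMM-scaled CPM, while the neutrophil sum shows no such order.

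The transcripts behind the receptors were compared as shares of the gene's estimated counts. RSEM divides reads that several transcripts share, so these shares carry an error that the tables do not give. Msr1 had 2 transcripts, of 3643 and 1467 nt. The long one took 64.2% of the Msr1 counts summed over macrophages (51.4% to 77.3% by library) and 92.4% in microglia, where the gene had only 20 to 144 counts per library. Cd36 had 5 transcripts that differ little in length, and the one of 3542 nt took 68.5% in macrophages (44.5% to 83.6%). Cd68, Stab1 and Colec12 were each listed with 1 transcript.

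Scarb1 in microglia had 1 library with other shares than the rest. Its transcript of 2534 nt took 70.6% of the counts summed over microglia, with a median of 79.4% by library, but 13.2% in female CD163KO PFF microglia. In that library the transcripts of 2196 and 2405 nt took 46.4% and 40.4% of 265 counts. In macrophages the shares of Scarb1 varied as widely, and its transcript of 2534 nt took between 0% and 97.0%. The summed level of Scarb1 in that library, 6.81 FPKM, lay close to the median of microglia.

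**Figure D5:**
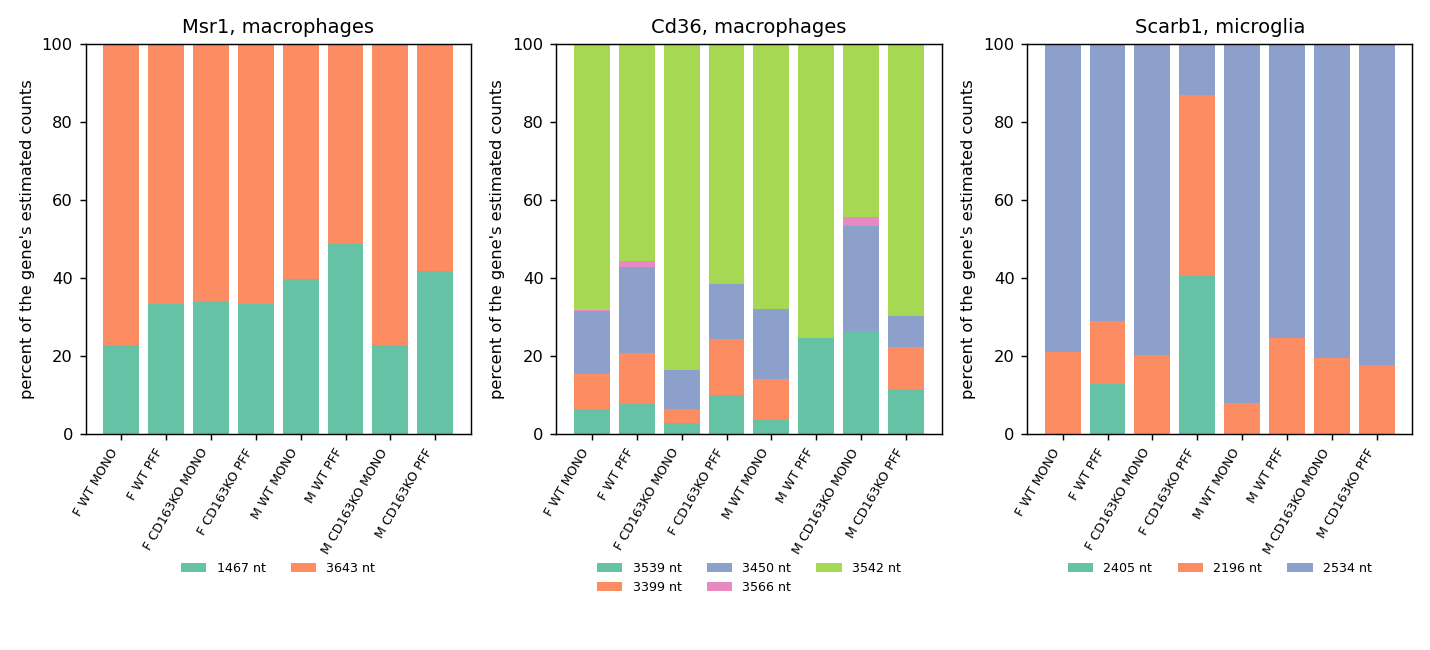
Share of each transcript, named by its length, in the estimated counts of Msr1 and Cd36 in macrophages and of Scarb1 in microglia, for every library (F, female; M, male). The 3643-nt Msr1 and the 3542-nt Cd36 transcript take the largest share in all 8 macrophage libraries, and female CD163KO PFF microglia stand out for Scarb1.

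Genes of the same biology were counted next to the receptors. Of 21 further scavenger receptor genes, none except Cd163 was called by genotype or treatment in either population, among 17 tested in macrophages and 16 in microglia. The nearest were Lgals3bp, a secreted scavenger receptor domain protein, and Clec7a, the β-glucan receptor. Lgals3bp had log2 fold changes by treatment of 1.13 ± 0.36 in macrophages (adjusted p = 1) and 0.91 ± 0.35 in microglia (adjusted p = 0.78), and Clec7a had 1.08 ± 0.33 in microglia (adjusted p = 0.78). Of 18 genes of lipid handling and its nuclear receptors and 14 signalling partners of CD36, none of those tested was called by genotype or treatment (18 and 14 tested in macrophages, 16 and 12 in microglia).

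Between populations 9 of 19 further scavenger receptors passed, 6 higher in macrophages (11.6% of all genes) and 3 lower (6.64%). Scarf2 was among the 3 lower but was listed at 0 in 7 of 8 macrophage libraries. It passed the count filter through the microglia libraries, so nothing is read from its call. Cd209a, a C-type lectin, led with a log2 fold change of 10.01 ± 0.62 (adjusted p = 1.6e-06), and Mrc1, the mannose receptor, had 6.64 ± 0.50 (adjusted p = 6.1e-06). Lrp1, the large endocytic receptor for apolipoprotein E, was lower at -2.42 ± 0.28 (adjusted p = 0.00013), and so was Scarb2, the lysosomal relative of Cd36, at -1.25 ± 0.20 (adjusted p = 0.0011). Calls of all 3 lists are from the TMM-scaled fit, and without that scaling calls over all genes were 599 higher and 5711 lower. The lipid genes also gave 6 higher and 3 lower of 18. Pparg, the nuclear receptor that drives Cd36 in macrophages, was among the 6 but passed the count filter through the macrophage libraries, with a median of 1.44 FPKM there, and was listed at 0 in 7 of 8 microglia libraries, so no fold is given. The lipid droplet gene Plin2 had a log2 fold change of 2.90 ± 0.25 (adjusted p = 1.2e-05), while the cholesterol exporter Abca1 was lower at -1.14 ± 0.25 (adjusted p = 0.0074). Of the 14 partners of CD36, Vav3 and Fcer1g were called higher and Cd9 and Vav1 lower. Vav3 reached at most 0.14 FPKM in microglia and was listed at 0 in 4 of 8 microglia libraries. It passed the count filter through the macrophage libraries, so nothing is read from its call.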

How the data were processed

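SMART-seq2 libraries were mapped with Bowtie2 and quantified with RSEM by the authors, per the labels with mm10, and versions are not given in the sources used here. The deposited tables list RefSeq transcripts with estimated counts and FPKM, and a transcript not listed was taken as 0. DESeq2 is also named there. Per symbol of the RefSeq table of GRCm38.p6 (27632 of 27787 transcripts, 99.4%), both were summed, and 5248 genes had several transcripts. Transcripts without a symbol (up to 0.128% of a library's counts) were left out. The 8 receptors and the gene lists were chosen with earlier results of these data known.

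Rounded estimated counts were tested with edgeR 4.0.16 (quasi-likelihood, TMM, filterByExpr, Benjamini-Hochberg over all genes, called at an adjusted p of 0.05) in R 4.3.3. Within a population, sex, genotype and treatment were additive terms in 7 libraries, with 3 residual degrees of freedom. Because 1 library stands for a combination, the p-values measure the scatter left after these terms. The comparison of populations had the mouse group as a block in 14 libraries, since the methods sorted both from the same brains. Matched differences used log2(FPKM + 1).

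Alternatives were all libraries, no TMM, size factors of DESeq2, DESeq2 1.42.0, no filter, limma 3.58.1 on log2(FPKM + 1) and log2(FPKM + 0.1), a log2 change of at least 1, no block, and each mouse group left out. Pseudocounts of 0.1 and 5 and TMM-scaled CPM were tried for matched differences. Leaving out male WT PFF is among the fits with a mouse group left out. With male CD163KO MONO already out, it removes the 4 libraries that stood apart. It was singled out in the text after seeing the data. The scripts were tested on simulated data. Depth per library limits counts under 3, and this floor covers counting error only. Named genes were the 8 receptors, Cd163, and up to 4 called genes per list and direction, or else the 2 with the smallest adjusted p, and the 3 genes most correlated with a receptor. Coordinates and sequences are from RefSeq. Python 3.11.15, pandas 2.3.3 and numpy 2.4.6 were used.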

Additional observations from a re-analysis of the deposited data

Results flagged for a closer look

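In groups of 4 and 8 libraries, 69 in all, 9 had a highest or lowest receptor level whose gap to its neighbour passed Dixon's 95% limit. For normally distributed values chance gives such a gap in about 1 of 20 groups. The limit was applied to FPKM, which need not be so distributed, so 9 of 69 is not read as an excess. Many of these groups share libraries. Male WT PFF macrophages stood high for Cd36 at 210.06 FPKM (next 53.73 among 8 libraries and 34.78 among the 4 PFF libraries) and for Colec12 at 48.88 (next 11.03 among WT). That library is one of the 4 described as standing apart. Male CD163KO MONO macrophages stood high for Olr1 at 3.70 FPKM, among 8 libraries (next 1.29) and among CD163KO libraries (next 0.23). In microglia, Msr1 was high in female WT MONO at 5.46 FPKM (next 2.63 among 8 and 1.37 among the 4 MONO libraries). The library labelled female CD163KO MONO, which held Y-linked counts, was high for Olr1 at 2.47 FPKM (next 1.06) and low for Cd68 at 1040.62 among CD163KO microglia (next 1290.77).

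The male CD163KO MONO macrophage library enters no main test. It is part of the levels described over 8 libraries and of the alternative with all libraries. Its Olr1 (3.70 FPKM) and Stab1 (130.56 FPKM) were above the highest WT macrophage value of each gene, 1.29 FPKM of Olr1 in female WT MONO and 129.51 FPKM of Stab1 in male WT PFF. In TMM-scaled CPM its Stab1 lay within the WT range (455 against 439 to 610). The difference was not tested.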

How the results depend on the processing

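No receptor was called by genotype, by treatment or by their interactions with population under any alternative that tested it; in macrophages limma did not test Olr1, and DESeq2 gave it no adjusted p for treatment. Between populations the number called was 2 instead of 4 without TMM, with limma on log2(FPKM + 1) and with limma on log2(FPKM + 0.1), and 3 to 6 with 1 mouse group left out. Cd68 was called in the reported fit and lost its call with all libraries, DESeq2 size factors, no filter, no TMM and limma, and when any mouse group other than male WT PFF was left out (adjusted p from 0.099 to 0.115). Without the mouse group as a block the number stayed at 4 (2979 genes in all). Within a population no paired analysis was possible because the replicate number stands for sex alone, which is already a term of every fit there. The comparison of populations and the interactions were paired by mouse group.

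Signs turned for estimates that passed no test. With all libraries, log2 fold changes became -0.44 (Scarb1, genotype, macrophages), 0.79 (Scarb1, treatment, macrophages), -0.29 and 0.059 (Cd36 and Stab1, genotype, microglia) and -0.32 (Colec12, treatment, microglia). Without TMM they became, in macrophages, -0.32 (Stab1, genotype) and -0.069 (Cd68, treatment), in microglia 0.12 and 0.38 (Cd68 and Stab1, genotype) and -0.12, -0.22 and -0.045 (Stab1, Colec12 and Olr1, treatment), and between populations -0.97 (Scarb1) and -0.43 (Colec12). With limma at pseudocounts 1 and 0.1, the same results gave -0.24 and -0.25, -0.10 and -0.10, 0.11 and 0.11, 0.38 and 0.39, -0.17 and -0.18, -0.16 and -0.17, -0.39 and -0.31, -0.72 and -0.94, and -0.35 and -0.40, and Stab1 by treatment in macrophages gave -0.053 and -0.056. The cause was not tested, beyond the shift of the median of all genes given for the populations.

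With 1 mouse group left out, values by genotype in macrophages ran from -1.01 to 0.78 (Cd36) and from -0.47 to 2.38 (Scarb1), and by treatment from -0.20 to 1.19 (Cd36), -0.32 to 0.69 (Cd68) and -2.09 to 0.76 (Scarb1). In microglia they ran from -0.97 to 0.23 (Cd68) and -0.36 to 0.049 (Stab1) by genotype, and from -0.52 to 1.49 (Colec12), -0.62 to 0.16 (Msr1) and -1.36 to 1.61 (Olr1) by treatment.

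Of the matched CD163KO minus WT differences of log2(FPKM + 1), 13 of 56 turned sign with TMM-scaled CPM, 5 of them in pairs with male WT PFF, 5 with male CD163KO MONO and 3 between females. The largest turns were those of Cd68 (0.22 to -1.98) and Stab1 (2.01 to -0.13) in microglia with male WT PFF. Over pseudocounts of 0.1 and 5 and TMM-scaled CPM, 22 values moved by more than 1 SD of the gene's 4 differences in that population and 170 by less.

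Counts over all genes moved more. By genotype in macrophages 1 gene passed, against 2 without TMM, 2 with DESeq2, and 4 and 5 with limma at pseudocounts 1 and 0.1, and 0 to 5 with a mouse group left out (0 without female WT PFF, female CD163KO PFF or male CD163KO PFF, 5 without male WT PFF). By treatment in macrophages 0 passed, against 1 without TMM, 13 with DESeq2, 1 and 4 with limma, and 4 without male WT PFF. In microglia 0 passed by genotype, against 3 with DESeq2 and 19 without the filter, and 0 by treatment, against 3 without TMM, 25 with DESeq2, 11 without the filter, 1 with limma and 1 without male WT PFF. Between populations 2499 passed, against 6310 without TMM, 4738 with DESeq2, 6329 and 6434 with limma, and 4869 without male WT PFF. The interactions gave 0, against 36 each with DESeq2, 3 for genotype without TMM, and 1 each without male WT PFF. With 7 libraries and 3 residual degrees of freedom, a 2-fold change lay within most intervals.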

Other observations

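Genes whose levels ran most like a receptor's were listed by Pearson's r of log2(FPKM + 1) over the 8 libraries of a population, among 5262 macrophage genes with a mean of at least 5 FPKM. In macrophages Cd36 ran most like Arl6ip4 (r = 0.99), Tdrkh and Xrcc6, Msr1 like Map3k1 (0.99), Eif2s1 and Nrp1, Stab1 like Tmem59 (0.99), Ncoa4 and Idh2, and Colec12 like Pih1d1 (0.99), Arhgap25 and Slfn8. Cd68 had a lower best value, 0.91 with Pfdn1. These are descriptions over the same 8 libraries, 2 of which stand apart, and carry no test.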
